A study of Homo sapiens with 54 samples.

Results

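The 45 genes described here encode heterogeneous nuclear ribonucleoproteins (hnRNPs) and other regulators of pre-mRNA splicing. They were taken by name, 45 of the 55906 gene rows in each of 4 expression tables, and were followed through every perturbation of the paralogs *TRA2A* and *TRA2B* in 4 human cancer cell lines. By role they comprised 6 hnRNPs of the A/B type, 2 of the C type, 4 of the F/H type, 6 KH-domain proteins, 4 proteins of the polypyrimidine tract-binding (PTB) family with *HNRNPL* included, 5 hnRNPs of the M, R, U and Q types, 3 relatives of RBMX including the cold-inducible proteins, 3 regulators of the RBM5 type, 6 tissue regulators, 3 proteins that bind U-rich RNA and 3 nuclear speckle proteins.

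hnRNPs are abundant nuclear proteins that coat nascent transcripts, and many of them favor skipping of an exon when bound in or near it. SR proteins act in the opposite sense on many exons, binding purine-rich enhancers and recruiting the spliceosome. TRA2A and TRA2B are SR-like paralogs that bind AGAA-rich exonic sequence, and many splicing regulators control their own mRNA through exons that expose the transcript to nonsense-mediated decay.

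A549 and NCI-H23, both lung cancer lines, stably expressed Zim3-dCas9, a catalytically dead Cas9 fused to a transcriptional repressor domain. They received guides against control loci (Control KD), *TRA2A* (TRA2A KD), *TRA2B* (TRA2B KD) or both genes (TRA2A/B DKD), and RNA was collected 5 days after transduction. The glioma lines LN229 and LN319 overexpressed luciferase (Luc) or TRA2B (TRA2B-OE) and received active Cas9 with guides against control loci, *TRA2A* or *TRA2B*, with collection at 7 days. These formed the groups Luc Control KO, Luc TRA2A KO, Luc TRA2B KO, TRA2B-OE Control KO and TRA2B-OE TRA2A KO in each glioma line. Every one of the 18 groups had 3 libraries of poly(A)-selected RNA, 54 in all. The cells were transduced and selected populations, and no cloning step is named. Nothing in the labels says whether the 3 libraries of a group came from separate cultures, so p-values measure only the spread between these libraries. In bulk RNA, a smaller share of cells with an mRNA and less of it per cell cannot be told apart.

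The targeted mRNAs were lower where a gene was depleted, apart from an overlap in 1 comparison of LN229. In A549, *TRA2A* averaged 75.1 TPM (transcript abundance relative to the library total) in Control KD, 7.18 in TRA2A KD and 10.4 in TRA2A/B DKD, and *TRA2B* averaged 137, 13.3 in TRA2B KD and 22.4 in TRA2A/B DKD. In NCI-H23 the same means were 105, 6.84 and 21.5 TPM for *TRA2A*, and 92.2, 9.75 and 23.3 TPM for *TRA2B*. Knockout by Cas9 need not remove the mRNA. *TRA2A* went from 109 to 68.8 TPM in LN229 and from 107 to 35.5 in LN319 in the Luc arm, *TRA2B* from 222 to 147 and from 87.6 to 30.8, and overexpression brought *TRA2B* to 832 and 765 TPM. In the TRA2B-OE arm *TRA2A* went from 91.1 to 48.1 TPM in LN319, but in LN229 it measured 84.3, 74.8 and 81.5 TPM in TRA2B-OE Control KO and 75.6, 68.8 and 65.4 in TRA2B-OE TRA2A KO, so those groups overlapped. The paralog that was not targeted moved as well. *TRA2B* averaged 163 TPM in A549 TRA2A KD, 136 in NCI-H23 TRA2A KD, and 251 and 104 in Luc TRA2A KO of LN229 and LN319. Each was above its control mean. *TRA2A* averaged 97.4 and 156 TPM in TRA2B KD of A549 and NCI-H23 and 169 in LN229 Luc TRA2B KO, also above. In LN319 Luc TRA2B KO it averaged 90.5 TPM, below the control mean. Among marker genes, *KRT8* and *KRT18* averaged at least 772 TPM in the control libraries of both lung lines, while the surfactant genes *SFTPB* and *SFTPC* were under 1 TPM there. The other epithelial markers were low in NCI-H23 Control KD, with *KRT7* at 3.95, *CDH1* at 1.94, *EPCAM* at 1.28 and *KRT19* at 0.077 TPM. The mesenchymal marker *VIM* averaged 1599 TPM in that group. All 6 glial markers examined reached 1 TPM in at least 1 library of LN229, and 4 of the 6 did so in A549. In LN319 *OLIG2* and *FABP7* did not. There *S100B* averaged 0.348 TPM and the epithelial gene *CDH1* averaged 123 TPM in Luc Control KO. In that group *EPCAM* averaged 0.394 TPM and the lung marker *NKX2-1* 7.98 TPM. A549 Control KD replicate 3 stood apart from the other A549 libraries, with a median correlation of 0.837, and the A549 double-knockdown counts are given below with and without it.

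The members were abundant in control cells, and the same gene led in every line. Summed over the 45 genes, mean levels came to 10365 TPM (A549), 9641 TPM (NCI-H23), 10849.9 TPM (LN229) and 11683 TPM (LN319), with medians per gene of 146, 139, 173 and 190.2 TPM. *HNRNPA1*, a shuttling hnRNP that favors exon skipping, was highest at 1249 ± 44.1, 1281 ± 76.3, 1357 ± 46.6 and 1328 ± 53.3 TPM (mean ± SD, n = 3). *HNRNPA2B1*, which binds RNA in mRNA transport as well as splicing, and *HNRNPH1*, which binds G-rich runs, took the next 2 places in every line, *HNRNPH1* ahead in A549 and LN319 and *HNRNPA2B1* ahead in NCI-H23 and LN229. In A549 Control KD *HNRNPH1* measured 931, 857 and 1315 TPM and *HNRNPA2B1* 911, 1017 and 869. The lead of *HNRNPH1* there came from replicate 3. A few genes differed widely between lines. *KHDRBS3*, a STAR-family KH protein with high expression in brain, averaged 2.36 and 7.52 TPM in A549 and NCI-H23 against 76.5 and 57.3 in LN229 and LN319. *PTBP2*, the neuronal PTB paralog, averaged 9.16, 10.1, 25.0 and 64.5 TPM in the same order. The epithelial splicing regulators *ESRP1* and *ESRP2* were under 1 TPM in A549 and LN229, and passed the filter on low values only in LN319 (*ESRP1*, 14.04 TPM) and NCI-H23 (*ESRP2*, 1.54 TPM). The tables of the lines were made separately, so these levels are set side by side with no test.

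**Figure D1:**
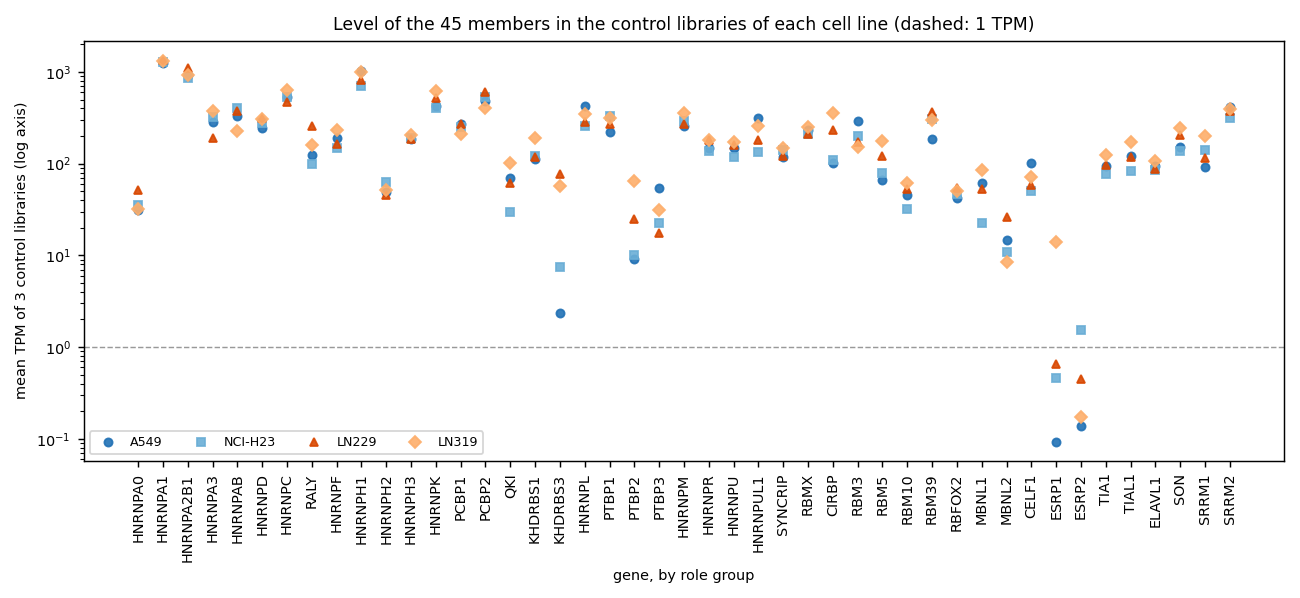
Mean TPM of the 3 control libraries of each cell line (log axis) for each of the 45 members, ordered by role. *HNRNPA1* is highest in every line at 1249 to 1357 TPM, and *KHDRBS3*, *ESRP1* and *ESRP2* show wide spread between lines.

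Fold changes below are differences on the log2(TPM + 0.1) scale after scaling of the libraries within a line, tested with limma over all genes that passed the filter. A gene was called at an adjusted p under 0.05.

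Depletion of 1 paralog at a time left nearly all members uncalled in the lung lines. In A549 none of 43 members tested was called by limma in TRA2A KD or TRA2B KD, where 0.213% and 0.335% of all genes were called. At an unadjusted p under 0.05 there were 7 and 8 members, beside 11.3% and 13.6% of all 16405 genes. In NCI-H23, TRA2A KD called none of 44 members against 0.976% of all genes, with 9 members and 13.6% of all genes at an unadjusted p under 0.05. TRA2B KD called 2, both lower, against 0.0368% of all genes called lower and 0.196% called in either direction. The first was *PCBP2*, a poly(C)-binding protein that stabilizes mRNAs, at 535, 543 and 531 TPM in Control KD and 464, 469 and 466 in TRA2B KD (log2 fold change -0.32 ± 0.05 SE, adjusted p = 0.038). The second was *RBM3*, a cold-inducible RNA-binding protein, at 197, 196 and 199.99 TPM in Control KD and 165, 160.2 and 167 in TRA2B KD (log2 fold change -0.38 ± 0.05 SE, adjusted p = 0.022). The groups did not overlap in TPM for either gene. Mitochondrial transcripts made up 17.8 to 19.3% of TPM in NCI-H23 TRA2B KD against 23.1 to 31.9% in Control KD, and their part in these calls was not tested. Neither call was made with TPM as deposited. The *PCBP2* call ended without any 1 of the 6 libraries compared (adjusted p up to 0.20), and the *RBM3* call without any 1 but Control KD replicate 2 (up to 0.12).

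Depletion of both paralogs lowered many of the members. In A549 TRA2A/B DKD, 19 of 43 members fell and 2 rose, where 15.9% of all genes were called lower and 14.6% higher (30.5% in all). In NCI-H23, 26 of 44 fell and 2 rose, where 23.2% of all genes were called lower and 20% higher (43.2% in all). The median log2 fold change of the members was -0.34 in A549 and -0.31 in NCI-H23, beside 0.04 and 0.02 over all genes tested. Summed levels of the 45 genes (mean ± SD, n = 3) went from 10365 ± 542 to 7747 ± 231 TPM in A549, while in NCI-H23 they went from 9641 ± 477 to 8138 ± 523 TPM. Without A549 Control KD replicate 3, the A549 calls came to 30 rather than 21, with 28 lower and 2 higher. All genes called went from 5004 to 6112 in that setting, with 3273 of 16178 lower and 2839 higher. With TPM as deposited and no scaling, the members called in NCI-H23 split 17 lower and 3 higher (median -0.15), while the median over all genes moved to 0.17.

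**Figure D2:**
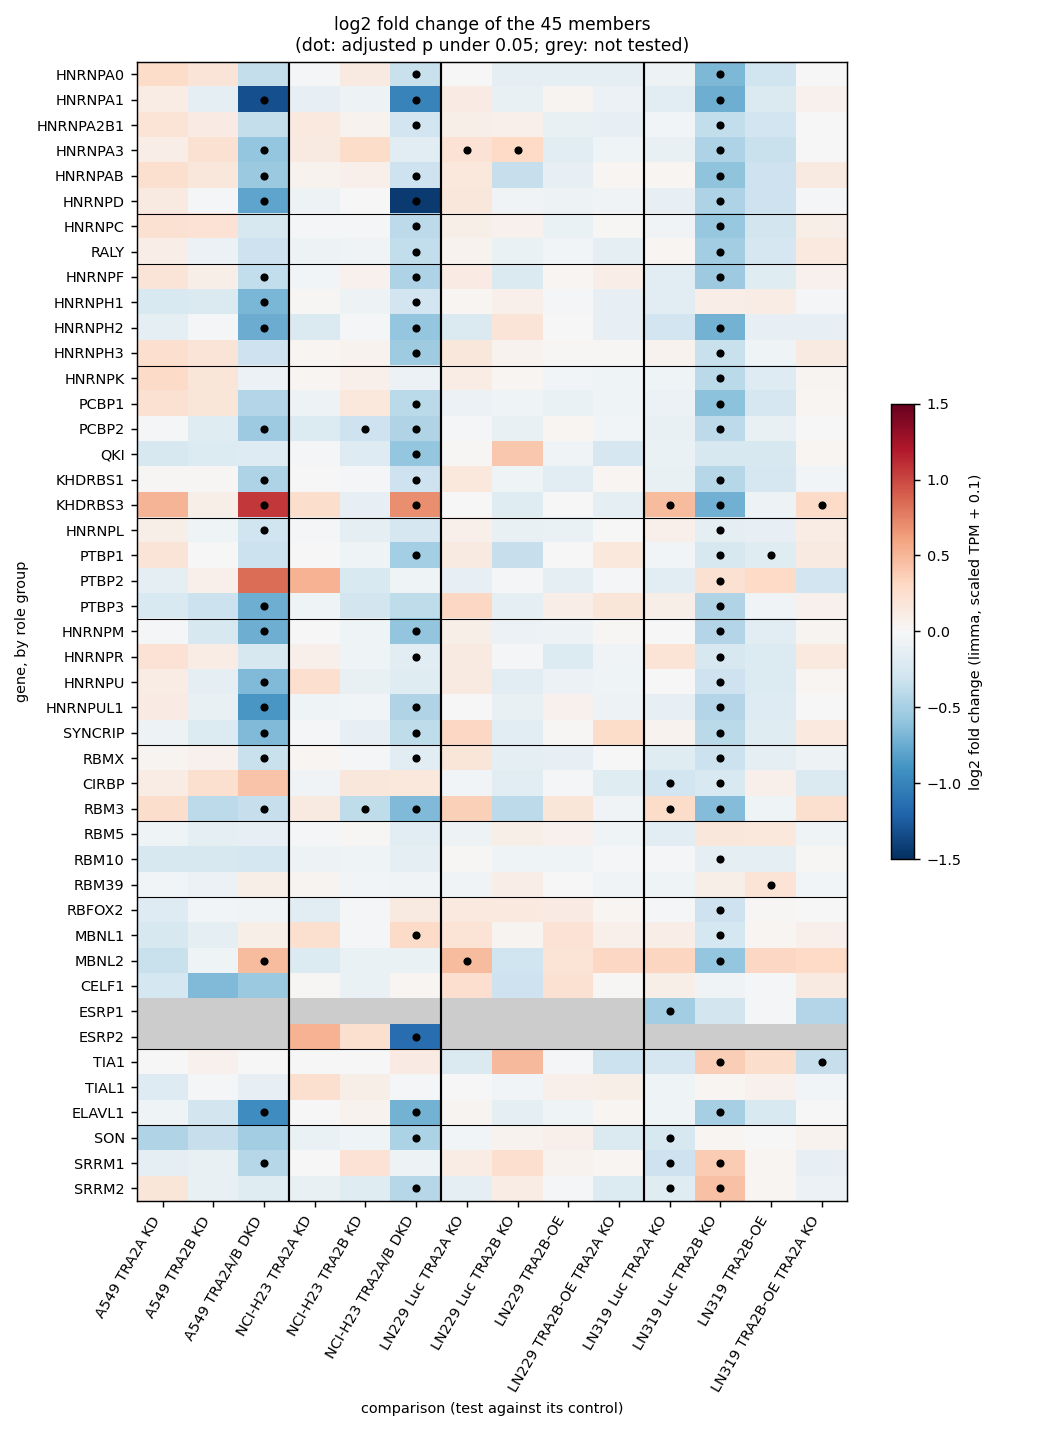
log2 fold change of each member (rows, by role) in each of the 14 comparisons (columns, test against its control), with a dot where the adjusted p was under 0.05 and grey where the gene was not tested. The blue columns with most dots are TRA2A/B DKD in A549 (19 lower, 2 higher) and NCI-H23 (26 lower, 2 higher) and Luc TRA2B KO in LN319 (32 lower, 4 higher), directions given with scaling of the libraries, and *CIRBP*, *HNRNPA2B1*, *HNRNPL* and *PTBP1* turn upward in the last under quantile normalization.

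The fall reached 14 members in both lung lines, which is 73.7% of those that fell in A549 and 53.8% of those in NCI-H23. Over all 14450 genes tested in both lines, 11.5% were called lower in both. They were *HNRNPA1*, *HNRNPAB*, *HNRNPD*, *HNRNPF*, *HNRNPH1*, *HNRNPH2*, *HNRNPM*, *HNRNPUL1*, *PCBP2*, *SYNCRIP*, *RBMX*, *RBM3*, *ELAVL1* and *KHDRBS1*. One member, *KHDRBS3*, rose in both. Without A549 Control KD replicate 3 the fall reached 23 members in both lines, the same 14 among them, which is 82.1% of the 28 lower in A549 and 88.5% of the 26 in NCI-H23. Without that library 3273 of all 16178 genes were lower in A549, and no share of all genes lower in both lines is given. By role, the members lower in A549 without that library were 6 of 6 A/B, 2 of 2 C, 4 of 4 F/H, 4 of 6 KH-domain, 2 of 4 PTB, 5 of 5 M, R, U and Q, 2 of 3 RBMX or cold-inducible, 0 of 3 RBM5-type, 0 of 4 tissue, 1 of 3 U-rich binding and 2 of 3 speckle genes. In that setting *HNRNPL* lost its call, and *MBNL1* in place of *KHDRBS3* rose in both lines.

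The A/B hnRNPs held the largest fall of each lung line, with 4 of 6 lower in A549 and 5 of 6 in NCI-H23. *HNRNPA1* measured 1249, 1293 and 1205 TPM in A549 Control KD, 1207, 1229 and 1221 in TRA2A KD, 1064, 1090.0 and 1050.2 in TRA2B KD and 506, 524 and 548 in TRA2A/B DKD (log2 fold change -1.32 ± 0.11 SE, adjusted p = 9.3e-06). The 3 double-knockdown libraries lay far below the other 9, at 42.1% of the control mean. In NCI-H23 the gene measured 1197, 1347 and 1297 TPM in Control KD, 1232, 1069 and 1187 in TRA2A KD, 1282, 1310.3 and 1338 in TRA2B KD and 723, 654 and 762 in TRA2A/B DKD (log2 fold change -1.002 ± 0.05 SE, adjusted p = 2.4e-07), again with the double knockdown below every other library. *HNRNPA1* (chr12:54280726-54287087, + strand, GRCh38) has many processed pseudogenes, and the 75 listed rows of these summed to 3.38% of its level in A549 Control KD and 2.45% in TRA2A/B DKD, and to 0.682% and 1.501% in NCI-H23.

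*HNRNPD* (chr4:82352498-82373991, − strand), also known as AUF1, binds AU-rich elements and regulates mRNA decay. In NCI-H23 it measured 267, 291 and 280.2 TPM in Control KD, 267, 245 and 277 in TRA2A KD, 302, 299.7 and 300.4 in TRA2B KD and 121, 101 and 125 in TRA2A/B DKD (log2 fold change -1.43 ± 0.06 SE, adjusted p = 4.5e-08), the largest fall of any member there. In A549 it measured 249.8, 265 and 223 TPM in Control KD and 145, 139.7 and 162 in TRA2A/B DKD (log2 fold change -0.79 ± 0.12 SE, adjusted p = 0.00072). The double-knockdown libraries were below the controls in both lines. *HNRNPAB*, its close relative, measured 333, 375 and 278 TPM in A549 Control KD and 219.6, 233 and 249 in TRA2A/B DKD (log2 fold change -0.55 ± 0.15 SE, adjusted p = 0.015). In NCI-H23 it measured 369, 445 and 407 TPM in Control KD and 367, 332 and 402 in TRA2A/B DKD (log2 fold change -0.31 ± 0.06 SE, adjusted p = 0.0024). Its groups overlapped in TPM in NCI-H23, where the call also ended with TPM as deposited (adjusted p = 0.21), and the A549 call ended without Control KD replicate 1 or TRA2A/B DKD replicate 1 (0.051 and 0.059). *HNRNPA3* fell in A549 alone (-0.58, adjusted p = 0.011), with -0.16 and no call in NCI-H23. *HNRNPA0* and *HNRNPA2B1* were called lower in NCI-H23 (-0.34 and -0.29) and measured -0.36 and -0.36 in A549 without a call.

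**Figure D3:**
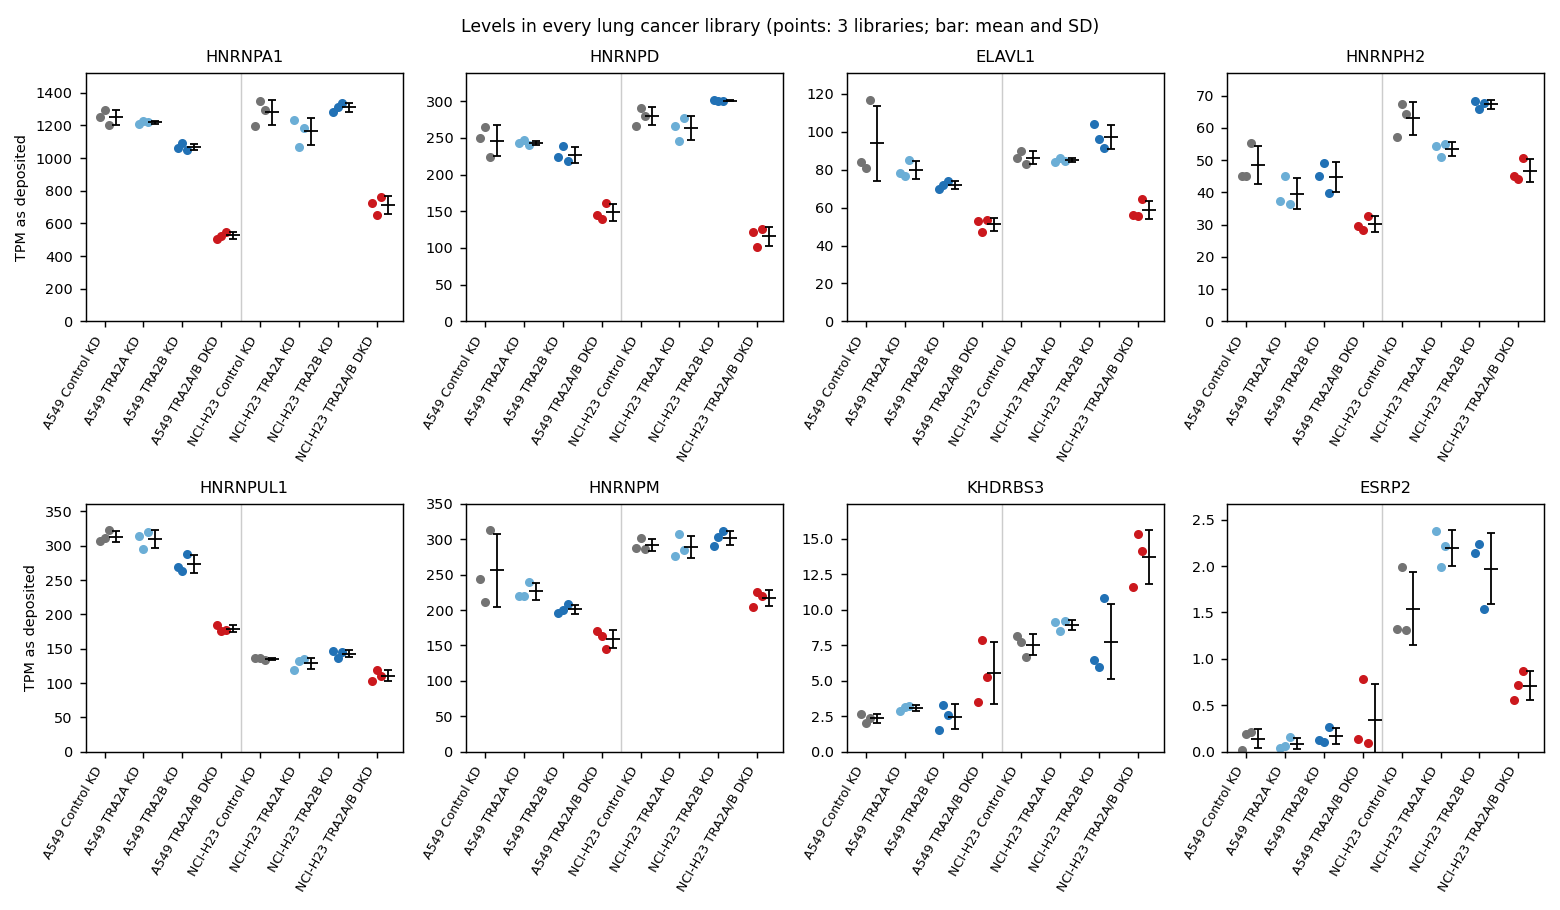
TPM as deposited in every lung cancer library for members described in the text, with points for the 3 libraries of a group and a bar for their mean and SD. *HNRNPA1* drops to 506 to 548 TPM in the A549 double knockdown, whereas *KHDRBS3* is higher in the double knockdown of both lines, and *ESRP2* was under the filter in A549 and was not tested there.

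Of the F/H hnRNPs, which bind runs of G, 3 of 4 fell in A549 and 4 of 4 in NCI-H23. *HNRNPH2* (chrX:101408222-101414133, + strand) measured 45.1, 45.01 and 55.4 TPM in A549 Control KD and 29.5, 28.3 and 32.8 in TRA2A/B DKD (log2 fold change -0.75 ± 0.10 SE, adjusted p = 0.00022). In NCI-H23 the values were 57.3, 67.3 and 64.2 in the control and 45.2, 44.1 and 50.7 (log2 fold change -0.58 ± 0.05 SE, adjusted p = 6.8e-06). The groups did not overlap in either line. On the log2 scale *HNRNPF* fell by 0.36 (A549) and 0.47 (NCI-H23) and *HNRNPH1* by 0.68 and 0.29, and *HNRNPH3* was called in NCI-H23 (-0.53) and not in A549 (-0.31). The A549 call of *HNRNPF* ended without Control KD replicate 1 or 2 or TRA2A/B DKD replicate 1 (adjusted p up to 0.096). Under quantile normalization the *HNRNPH1* call ended in A549 (adjusted p = 0.054). Its NCI-H23 call ended under quantile normalization and with TPM as deposited (up to 0.29). *HNRNPH1* and *HNRNPH2* are near-identical over much of their coding sequence, so reads may be split between them by the quantification.

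Among the M, R, U and Q proteins, 4 of 5 fell in each line. *HNRNPUL1* (chr19:41264372-41307787, + strand), a relative of the chromatin-associated hnRNP U, measured 307, 311 and 322 TPM in A549 Control KD and 185, 175 and 177 in TRA2A/B DKD (log2 fold change -0.87 ± 0.09 SE, adjusted p = 6.4e-05), and 137, 136 and 133 in the control and 103, 119 and 110.1 TPM in NCI-H23 (log2 fold change -0.45 ± 0.08 SE, adjusted p = 0.0014). *HNRNPM* (chr19:8444975-8489114, + strand), a regulator of splicing in epithelial-mesenchymal transition, measured 244, 211 and 313 in the control and 170.1, 163 and 145 TPM in A549 (log2 fold change -0.73 ± 0.11 SE, adjusted p = 0.00053) and 287, 302 and 287 in the control and 205, 226 and 219 TPM in NCI-H23 (log2 fold change -0.59 ± 0.07 SE, adjusted p = 9e-05). No double-knockdown library reached its control range for either gene. *SYNCRIP*, the Q hnRNP, fell by 0.67 and 0.38, *HNRNPU* fell in A549 (-0.66) with -0.19 and no call in NCI-H23, and *HNRNPR* fell in NCI-H23 (-0.18) with -0.24 and no call in A549. The *HNRNPR* call ended without Control KD replicate 1 or 2 or TRA2A/B DKD replicate 1 or 2 of NCI-H23 (adjusted p up to 0.10).

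Of the proteins that bind U-rich RNA, 1 of 3 fell in each line, and it was *ELAVL1* (chr19:7958573-8005641, − strand), the mRNA-stabilizing protein HuR. It measured 84.0, 80.8 and 117 TPM in A549 Control KD and 52.7, 47.1 and 53.5 in TRA2A/B DKD (log2 fold change -0.93 ± 0.10 SE, adjusted p = 6.4e-05), and 86.3, 90.04 and 82.8 in the control and 56.2, 55.6 and 64.5 TPM in NCI-H23 (log2 fold change -0.71 ± 0.06 SE, adjusted p = 8.9e-06). The groups were apart in both lines. The stress-granule proteins *TIA1* and *TIAL1* had fold changes of 0.01 and -0.12 (A549) or 0.12 and -0.02 (NCI-H23) and were not called.

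The KH-domain proteins moved both ways, with 2 of 6 lower and 1 higher in A549 and 4 lower and 1 higher in NCI-H23. *KHDRBS1* (Sam68), which couples signaling to splicing, fell by 0.46 and 0.31, and *PCBP2* by 0.54 and 0.45. *PCBP1*, an intronless relative of *PCBP2*, and *QKI*, a STAR protein, were called lower in NCI-H23 only (-0.40 and -0.58), with -0.44 and -0.19 in A549, and *HNRNPK* measured -0.09 in both lines with no call. *KHDRBS3* measured 2.65, 2.03 and 2.39 TPM in A549 Control KD and 3.51, 7.89 and 5.24 in TRA2A/B DKD (log2 fold change 1.06 ± 0.34 SE, adjusted p = 0.037). In NCI-H23 it measured 8.13, 7.74 and 6.70 in the control and 11.6, 15.3 and 14.2 TPM (log2 fold change 0.70 ± 0.21 SE, adjusted p = 0.019). Every double-knockdown library lay above the controls, but the A549 call ended without Control KD replicate 2 or 3 or without TRA2A/B DKD replicate 2 or 3 (adjusted p from 0.062 to 0.14), and the NCI-H23 call without Control KD replicate 3 or TRA2A/B DKD replicate 2 (0.065 and 0.067).

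The remaining roles held fewer calls. In the C family, 0 of 2 were called by limma in A549 and 2 of 2 fell in NCI-H23, where *HNRNPC* measured -0.39 and *RALY* -0.37 against -0.24 and -0.31 in A549. In the PTB family, *PTBP3* and *HNRNPL* fell in A549 (-0.73 and -0.30) and *PTBP1* in NCI-H23 (-0.50), while *PTBP2* measured 0.83 in A549 without a call (adjusted p = 0.19). *RBMX*, which encodes hnRNP G, fell by 0.33 and 0.17, and *RBM3* by 0.34 and 0.66, with 139, 139 and 140.3 TPM in the NCI-H23 double knockdown. In A549 the *HNRNPL* call ended without any 1 library but Control KD replicate 2 (adjusted p up to 0.13) and the *RBM3* call without any 1 but Control KD replicate 3 (up to 0.077), and in NCI-H23 the *RBMX* call ended without TRA2A/B DKD replicate 1 (0.050). Both *RBMX* calls also ended with TPM as deposited and under quantile normalization. Over all alternatives its adjusted p went up to 0.26 in A549 and 0.87 in NCI-H23. *CIRBP*, the other cold-inducible gene, measured 0.43 and 0.16 with no call. *RBM5*, *RBM10* and *RBM39*, which act on 3′ splice site choice, were not called in either line. Of the speckle proteins, *SRRM1* fell in A549 (-0.42), and *SON* and *SRRM2* fell in NCI-H23 (-0.47 and -0.42).

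The tissue regulators stood at 1 higher and 0 lower of 4 in A549, and 1 higher and 1 lower of 5 in NCI-H23. *MBNL2*, a muscleblind protein, measured 12.8, 12.4 and 19.4 TPM in A549 Control KD and 22.4, 20.5 and 20.7 in TRA2A/B DKD (log2 fold change 0.47 ± 0.13 SE, adjusted p = 0.021). *MBNL1* measured 22.1, 22.9 and 22.7 in the control and 28.4, 31.6 and 32.5 TPM in NCI-H23 (log2 fold change 0.29 ± 0.09 SE, adjusted p = 0.021). The groups did not overlap for either gene, yet the *MBNL2* call ended without Control KD replicate 1 or 2 or TRA2A/B DKD replicate 1 or 2 (adjusted p from 0.050 to 0.071), and the *MBNL1* call without Control KD replicate 2 or 3 or TRA2A/B DKD replicate 2 (0.053 to 0.068). *ESRP2* (chr16:68229033-68236127, − strand) measured 1.32, 1.99 and 1.32 TPM in NCI-H23 Control KD, 2.37, 1.99 and 2.22 in TRA2A KD, 2.14, 2.24 and 1.53 in TRA2B KD and 0.557, 0.717 and 0.864 in TRA2A/B DKD (log2 fold change -1.15 ± 0.27 SE, adjusted p = 0.0055). All 3 double-knockdown libraries were under 1 TPM and below the other 9. The call held under every alternative tried, with log2 fold changes between -1.87 and -0.64, and the gene passed the filter on low values through the other 9 libraries alone. *RBFOX2* and *CELF1* were called in neither line.

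AGAA, the sequence that TRA2 proteins bind, was counted in the coding sequence of each member, on the sense strand and with overlapping matches included. The members had a median of 7.83 AGAA per kb against 7.72 over 20020 coding genes, and the 6 members with the largest falls in both lung lines had 4.57 to 9.39. *SRRM1* had 24.0, above 98.3% of coding genes, and *CIRBP* had 2.24, the lowest of the members. The 60-base coding windows with most AGAA are shown for 5 members that fell in both lung lines and for the speckle genes *SRRM1* and *SRRM2*, with AGAA in capitals, written 5′ to 3′ on the strand of the gene (GRCh38). They show the motif and no binding was measured.
*HNRNPD*, chr4:82357338-82357397 (- strand, exon 5 of 9): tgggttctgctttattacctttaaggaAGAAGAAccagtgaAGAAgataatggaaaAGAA
*HNRNPAB*, chr5:178207138-178207197 (+ strand, exon 5 of 8): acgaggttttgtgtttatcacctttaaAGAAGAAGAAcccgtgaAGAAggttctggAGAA
*HNRNPM*, chr19:8455405-8455464 (+ strand, exon 2 of 16): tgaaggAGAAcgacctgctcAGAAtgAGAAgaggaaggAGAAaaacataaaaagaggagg
*HNRNPH2*, chrX:101412455-101412514 (+ strand, exon 2 of 2): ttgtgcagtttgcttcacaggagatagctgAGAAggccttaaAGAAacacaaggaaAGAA
*HNRNPUL1*, chr19:41268225-41268284 (+ strand, exon 2 of 15): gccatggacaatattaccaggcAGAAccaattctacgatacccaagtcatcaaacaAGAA
*SRRM1*, chr1:24671406-24671465 (+ strand, exon 16 of 17): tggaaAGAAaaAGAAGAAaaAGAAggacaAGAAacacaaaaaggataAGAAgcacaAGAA
*SRRM2*, chr16:2758476-2758535 (+ strand, exon 5 of 15): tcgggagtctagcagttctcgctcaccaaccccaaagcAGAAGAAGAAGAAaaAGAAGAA
The *HNRNPD* and *HNRNPAB* windows both lie in exon 5 and share the pattern of tandem AGAA followed by further copies. *HNRNPH2* carries its window in its last exon. *HNRNPA0* and *PCBP1* consist of 1 exon, as do 5.64% of coding genes.

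Promoters were compared for the 37 members with an entry in RefSeq, over 250 bases before to 50 bases after the start. CCAAT was present on either strand in 25 of these (67.6%) against 42.1% of 15843 coding genes, GGGCGG in 27 (73.0%) against 64.3%, CCGGAAG in 7 (18.9%) against 16.5%, and TATAAA in 5 (13.5%) against 12.4%. No motif contains another, and these counts are descriptions of the letters and not of bound factors. *HNRNPA1*, *RBM39*, *RBFOX2*, *QKI*, *ESRP1*, *ESRP2*, *ELAVL1* and *KHDRBS3* were not compared. Promoters of 3 members that fell together in both lung lines are shown from 250 bases before to 30 bases after the start (GRCh38.p14), with CCAAT or GGGCGG on either strand in capitals.
*HNRNPH2*, chrX:101407972-101408251 (+ strand): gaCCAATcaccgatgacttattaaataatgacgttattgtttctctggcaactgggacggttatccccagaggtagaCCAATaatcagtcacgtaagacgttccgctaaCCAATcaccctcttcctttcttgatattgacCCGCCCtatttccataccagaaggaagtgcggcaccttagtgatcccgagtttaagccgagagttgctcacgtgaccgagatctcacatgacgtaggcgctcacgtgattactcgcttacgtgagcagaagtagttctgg
*HNRNPAB*, chr5:178204283-178204562 (+ strand): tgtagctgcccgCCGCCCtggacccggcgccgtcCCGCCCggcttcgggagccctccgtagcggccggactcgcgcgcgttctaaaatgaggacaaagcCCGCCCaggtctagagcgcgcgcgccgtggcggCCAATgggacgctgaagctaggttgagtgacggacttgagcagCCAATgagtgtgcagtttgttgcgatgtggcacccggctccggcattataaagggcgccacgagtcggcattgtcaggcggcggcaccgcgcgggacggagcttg
*HNRNPM*, chr19:8444725-8445004 (+ strand): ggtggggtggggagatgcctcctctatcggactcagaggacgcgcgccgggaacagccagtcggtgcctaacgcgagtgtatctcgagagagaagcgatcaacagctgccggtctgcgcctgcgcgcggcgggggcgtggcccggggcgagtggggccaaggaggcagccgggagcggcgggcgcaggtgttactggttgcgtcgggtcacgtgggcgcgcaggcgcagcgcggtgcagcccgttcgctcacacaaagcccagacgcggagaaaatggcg
*HNRNPH2* has 3 CCAAT and 1 GGGCGG, *HNRNPAB* has 2 and 3, and *HNRNPM* has none of either, while all 3 fell in both lung lines.

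Whether loss of both paralogs exceeded the sum of the single depletions was tested as the double-knockdown difference minus the sum of the 2 single-knockdown differences. In A549, 18 of 43 members had a value below 0 and 1 above it, where 8.7% of all genes were below and 6% above (14.7% in all), and the members' median was -0.34 beside -0.04 over all genes. In NCI-H23, 17 of 44 were below 0 and none above, where 12.8% of all genes were below and 8.23% above (21% in all), and the median was -0.30 beside -0.01. Under quantile normalization the medians shrank to -0.07 in A549, beside -0.03 over all genes, and to -0.11 in NCI-H23, beside -0.0092. With TPM as deposited they came to -0.04 and -0.24, beside 0.26 and 0.05 over all genes. *HNRNPA1* had the largest value in A549 (-1.29 ± 0.15 SE, adjusted p = 0.00039) and -0.80 ± 0.08 in NCI-H23 (adjusted p = 6.9e-05). *HNRNPD* measured -0.90 in A549 and -1.35 in NCI-H23 (adjusted p = 0.0073 and 5.6e-06), *ELAVL1* -0.58 and -0.76 (adjusted p = 0.02 and 0.00027), and *HNRNPA3* -0.92 and -0.57 (adjusted p = 0.014 and 0.00098). *HNRNPA3* measured 299, 320.4 and 244 TPM in A549 Control KD, 274, 305 and 257 in TRA2A KD, 316, 329 and 301 in TRA2B KD and 195, 199 and 207 in TRA2A/B DKD, with the double knockdown lowest. In NCI-H23 the difference of *HNRNPA3* between TRA2A/B DKD and Control KD was not called. Its value there also draws on the single knockdowns and does not by itself mean a fall after loss of both paralogs. *ESRP2* reached -1.90 ± 0.38 in NCI-H23 (adjusted p = 0.0054), with -2.57 to -1.15 under the alternatives. Its double-knockdown libraries were all under 1 TPM, and it passed the filter only through the other groups, so this value is not independent of the filter. *MBNL2* was the member above 0 in A549 (0.88, adjusted p = 0.011). The A549 count came to 7 members, 6 below and 1 above, with TPM as deposited and under quantile normalization, and to 10 without TRA2B KD replicate 2. The *ELAVL1* value in A549 was not called without TRA2B KD replicate 2 or 3 or TRA2A/B DKD replicate 2 (adjusted p up to 0.057).

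Luc TRA2B KO of LN319 lowered many members. Of 44 tested, 32 fell and 4 rose, where 24.2% of all genes were called lower and 18.5% higher (42.7% in all), with a median of -0.35 beside 0.02. Under quantile normalization 21 fell and 10 rose (median -0.12), and with TPM as deposited 28 fell and 6 rose. The summed level of the 45 genes went from 11683 ± 181 to 10421 ± 53.1 TPM (mean ± SD, n = 3). Mitochondrial transcripts moved with this group, at 18.3 to 20.6% of TPM in the 3 libraries against 12.1 to 12.8% in Luc Control KO, and their part in the result was not tested. All 6 A/B, 2 C and 3 cold-inducible or RBMX genes fell, as did 3 of 4 F/H, 5 of 6 KH-domain and 5 of 5 M, R, U and Q genes. Of the 14 members that fell in both lung double knockdowns, 13 fell here, beside 32 of all 44 members tested. *HNRNPH1* measured 0.10 without a call. The matching share over all genes is not given.

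*HNRNPA1* measured 1336, 1272 and 1378 TPM in LN319 Luc Control KO, 1131, 1118 and 1228 in Luc TRA2A KO and 869, 869 and 856 in Luc TRA2B KO (log2 fold change -0.73 ± 0.11 SE, adjusted p = 0.00025). *HNRNPH2* measured 51.6, 52.8 and 51.9 TPM in Luc Control KO and 32.3, 36.0 and 35.3 in Luc TRA2B KO (log2 fold change -0.70 ± 0.09 SE, adjusted p = 0.00013). *HNRNPA0*, an intronless A/B hnRNP, measured 32.5, 31.1 and 32.1 in the control and 20.1, 22.4 and 21.9 TPM (log2 fold change -0.68 ± 0.09 SE, adjusted p = 0.00012). In none of the 3 genes did the TRA2B knockout overlap its control. *HNRNPD* went from 299, 289 and 323 to 241, 240.4 and 232 TPM (log2 fold change -0.46 ± 0.11 SE, adjusted p = 0.0044), a smaller difference than the value of -1.43 in the NCI-H23 double knockdown, which was not tested against it. *ELAVL1* fell by 0.49, *HNRNPM* and *HNRNPUL1* by 0.44 each, and *PCBP1*, the other intronless gene, by 0.61. *HNRNPA2B1*, *HNRNPL*, *PTBP1* and *CIRBP* were called lower here at -0.36, -0.15, -0.24 and -0.23, but turned to 0.22, 0.11, 0.028 and 0.036 under quantile normalization, and the calls of *HNRNPA2B1* and *HNRNPL* ended without Luc Control KO replicate 3 (adjusted p = 0.051 and 0.067) and that of *CIRBP* without replicate 2 (0.054). The calls of *HNRNPR*, *HNRNPU* and *RBM10* (-0.24, -0.31 and -0.15) also ended without single libraries, Luc Control KO replicate 3 for all of them, replicate 1 for *HNRNPU* and *RBM10*, Luc TRA2B KO replicate 2 for *HNRNPU* and replicate 1 for *RBM10* (adjusted p up to 0.052, 0.074 and 0.13).

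The 4 members that rose were the speckle proteins *SRRM1* and *SRRM2*, *TIA1* and *PTBP2*. *SRRM2*, a large scaffold of nuclear speckles, measured 376, 424 and 377 TPM in LN319 Luc Control KO, 365, 339 and 303 in Luc TRA2A KO and 562, 583 and 567 in Luc TRA2B KO. It rose in the latter (log2 fold change 0.43 ± 0.06 SE, adjusted p = 0.00011). *SRRM1* measured 183, 215 and 199, 168, 153 and 147 and 290.1, 273 and 275 TPM in the same groups and rose with *TRA2B* knockout (log2 fold change 0.38 ± 0.06 SE, adjusted p = 0.00054). Both genes were highest in the *TRA2B* knockout and lay without overlap above the other 2 groups. *TIA1* went from 118, 139 and 114 to 183, 169 and 166 TPM (log2 fold change 0.37 ± 0.08 SE, adjusted p = 0.003), and *PTBP2* was called at 0.23 (adjusted p = 0.031), a call that ended without any 1 of the 6 libraries compared (up to 0.11). The direction of *SRRM1* in LN319 Luc TRA2B KO was opposite to its fall in the A549 double knockdown, and that of *SRRM2* to its fall in NCI-H23. No member that rose in a lung double knockdown rose in LN319 Luc TRA2B KO. Those risers, *KHDRBS3*, *MBNL2* and *MBNL1*, were called lower there (-0.72, -0.58 and -0.26). The *MBNL1* call ended with TPM as deposited and under quantile normalization. These contrasts between lines were not tested.

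Luc TRA2A KO of LN319 called 7 of 44 members, 5 lower and 2 higher, where 7.25% of all genes were called lower and 7% higher (14.3% in all). *ESRP1*, an epithelial splicing regulator, measured 14.3, 15.2 and 12.7 TPM in Luc Control KO and 10.9, 10.5 and 7.32 in Luc TRA2A KO (log2 fold change -0.53 ± 0.12 SE, adjusted p = 0.01), with every knockout library below the controls. *SRRM1* fell (log2 fold change -0.31 ± 0.06 SE, adjusted p = 0.0075), as did *SON* (-0.24, adjusted p = 0.043) and *SRRM2* (-0.18, adjusted p = 0.045). The *SON* call ended without any 1 Luc Control KO library or without Luc TRA2A KO replicate 2 or 3 (adjusted p up to 0.13), and the *SRRM2* call ended in the same 5 cases (up to 0.18). *CIRBP*, induced by cold and stress, measured 339, 386 and 350.0 TPM in Luc Control KO and 288, 297 and 270.2 in Luc TRA2A KO (log2 fold change -0.29 ± 0.07 SE, adjusted p = 0.014), and lost the call without Luc Control KO replicate 2 (adjusted p = 0.051). *RBM3*, its relative, measured 158, 142 and 154 TPM and 178, 170.5 and 187 TPM (log2 fold change 0.28 ± 0.08 SE, adjusted p = 0.04), and lost the call without Luc Control KO replicate 2 or 3 or Luc TRA2A KO replicate 1 or 3 (adjusted p from 0.055 to 0.12). *RBM3* measured 102, 111 and 101 TPM in Luc TRA2B KO (log2 fold change -0.65 ± 0.08 SE, adjusted p = 0.00011), below every control library.

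*KHDRBS3* was called in both single knockouts of LN319, higher in one and lower in the other. It measured 59.2, 56.8 and 55.9 TPM in Luc Control KO, 78.9, 78.0 and 75.8 in Luc TRA2A KO and 36.5, 37.6 and 38.2 in Luc TRA2B KO. The fold changes were log2 fold change 0.48 ± 0.06 SE, adjusted p = 0.00058, and log2 fold change -0.72 ± 0.06 SE, adjusted p = 1.5e-05. No library of the 3 groups overlapped with another group. Both comparisons use the same Luc Control KO libraries, and the difference between the knockouts was not tested.

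**Figure D4:**
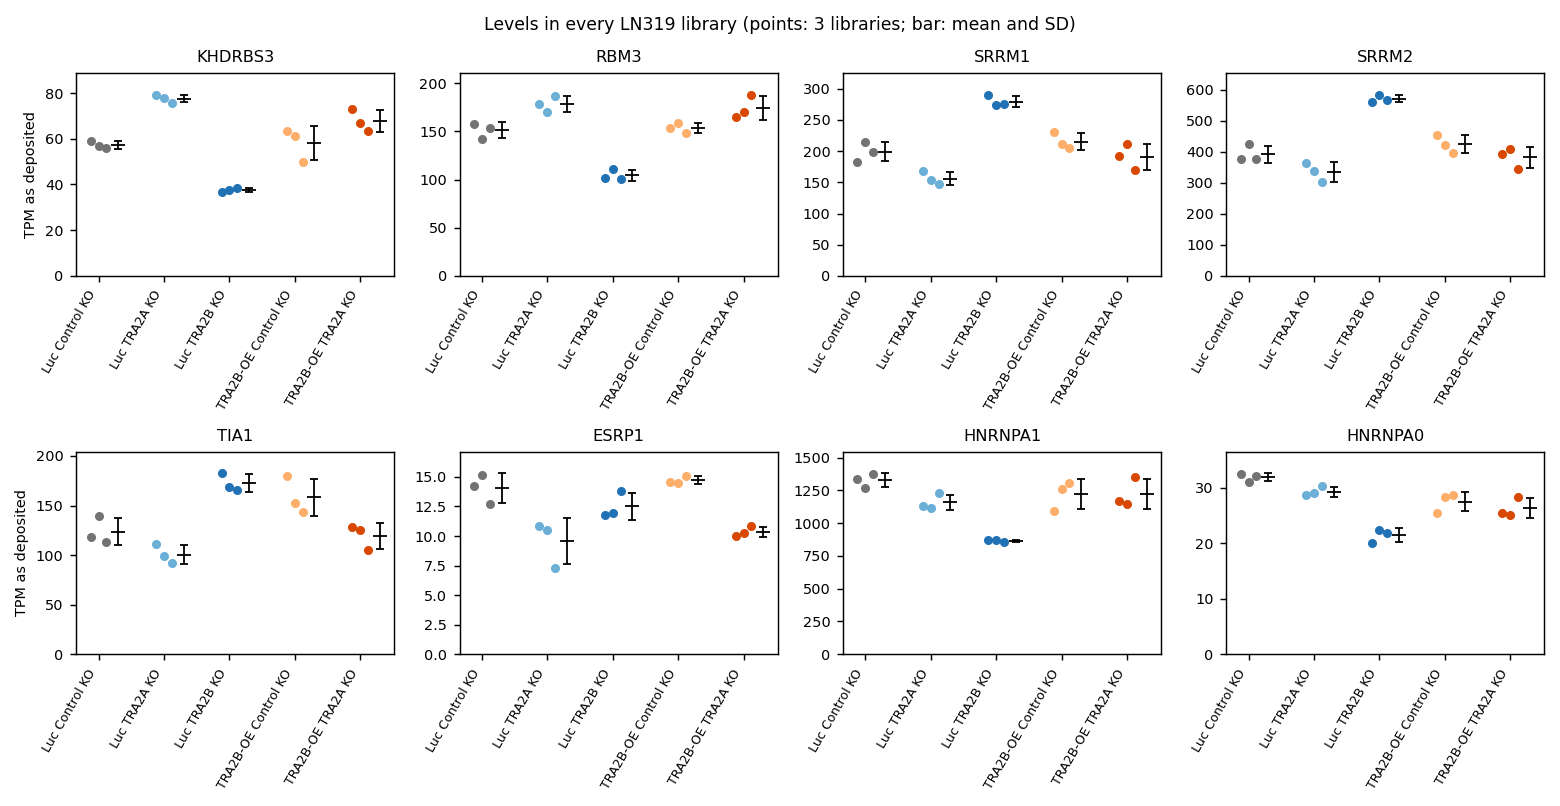
TPM as deposited in every LN319 library for members described in the text, with points for the 3 libraries of a group and a bar for their mean and SD. *KHDRBS3* sits at 75.8 to 78.9 TPM after *TRA2A* knockout and 36.5 to 38.2 TPM after *TRA2B* knockout, with the control at 55.9 to 59.2 TPM.

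In LN229 few members were called. Luc TRA2A KO called 2 of 43, both higher, where 1.96% of all genes were called higher and 3.79% in all. *MBNL2* measured 24.3, 25.6 and 27.7 TPM in Luc Control KO and 37.1, 33.7 and 35.3 in Luc TRA2A KO (log2 fold change 0.47 ± 0.09 SE, adjusted p = 0.02), and *HNRNPA3* measured 191, 186 and 194 in the control and 219, 216 and 219 TPM (log2 fold change 0.22 ± 0.04 SE, adjusted p = 0.022). Luc TRA2B KO called 1 of 43, higher, where 0.211% of all genes were called higher and 0.557% in all, and it was *HNRNPA3* again, at 231, 250.4 and 249 TPM (log2 fold change 0.30 ± 0.04 SE, adjusted p = 0.015). The knockout libraries lay above the controls in all 3 cases. The *MBNL2* call ended without Luc Control KO replicate 1 or Luc TRA2A KO replicate 1 or 3 (adjusted p from 0.057 to 0.10), the *HNRNPA3* call in Luc TRA2A KO without any 1 library but Luc Control KO replicate 3 (up to 0.12), and its call in Luc TRA2B KO without replicate 2 or 3 of either group (up to 0.098). Without Luc Control KO replicate 1, Luc TRA2B KO called 13 members, 5 higher and 8 lower, and 3801 genes rather than 103. *HNRNPA1* measured 1304, 1376 and 1391 TPM in Luc Control KO and 1309, 1295 and 1295 in Luc TRA2B KO, and its fold change of -0.11 was not called.

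With overexpression of TRA2B alone few members were called. In LN229 TRA2B-OE Control KO against Luc Control KO, limma called 0 of 43, where 1.03% of all genes were called, and 6 members and 14.3% of all genes were at an unadjusted p under 0.05. In LN319 it called 2 of 44, 1 in each direction, where 2.14% of all genes were called higher and 2.16% lower (4.3% in all). At an unadjusted p under 0.05 there were 22 of these 44 members, beside 4826 of all 19303 genes. The members' median log2 fold change was -0.13 beside -0.02 over all genes. *RBM39*, a U2AF-related factor, measured 303, 307 and 283 TPM in Luc Control KO and 405, 355 and 338 in TRA2B-OE Control KO (log2 fold change 0.21 ± 0.05 SE, adjusted p = 0.047). *PTBP1*, the founding PTB protein, measured 304, 315 and 323 in the control and 299.7, 294 and 287 TPM (log2 fold change -0.18 ± 0.05 SE, adjusted p = 0.047). The groups did not overlap in TPM for either gene, but both calls ended without any 1 of the Luc Control KO libraries or without TRA2B-OE Control KO replicate 1 or 2 (adjusted p from 0.064 to 0.19). The LN319 count was 6 without TRA2B-OE Control KO replicate 3 (4 lower and 2 higher) and 16 with the replicate number as a block (13 lower and 3 higher). Deviations from the group means correlated at -0.033 to -0.0091 between same-numbered libraries of these groups.

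With TRA2B overexpressed, *TRA2A* knockout called 0 of 43 members in LN229 by limma, where 6.05% of all genes were called, and 5 members and 22.2% of all genes were at an unadjusted p under 0.05. *TRA2A* itself was not called in that comparison, at a log2 fold change of -0.23. In LN319 it called 2 of 44, 1 in each direction, where 1.54% of all genes were called higher and 1.27% lower (2.81% in all). *KHDRBS3* measured 63.5, 61.4 and 49.8 TPM in TRA2B-OE Control KO and 72.9, 67.0 and 63.3 in TRA2B-OE TRA2A KO (log2 fold change 0.28 ± 0.06 SE, adjusted p = 0.038), with overlap of the groups in TPM. *TIA1* measured 179.6, 152 and 144 in the control and 129, 125 and 105 TPM (log2 fold change -0.35 ± 0.08 SE, adjusted p = 0.044), without overlap. The *TIA1* call ended without any 1 of the 6 libraries (up to 0.13), and the *KHDRBS3* call without any 1 of 5 of them, all but TRA2B-OE Control KO replicate 2 (up to 0.15). The difference between the *TRA2A* knockout effects with and without overexpression was called for 0 of 43 members in LN229 and 0 of 44 in LN319 by limma, where 0% and 0.0207% of all genes were called. At an unadjusted p under 0.05 there were 6 and 2 members, beside 5.78% and 7.93% of all genes. The calls of *ESRP1*, *SRRM1* or *CIRBP* in 1 arm therefore were not shown to differ between arms.

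Across all 14 comparisons, *RBM5*, *CELF1* and *TIAL1* were called in none. Beside the members, 2 other sets of splicing genes were read in the same fits. Of other regulators and SR proteins, 16 of 50 fell and 5 rose in the A549 double knockdown (median -0.18), 24 of 51 fell and 11 rose in NCI-H23 (median -0.18), and 18 of 52 fell and 13 rose in LN319 Luc TRA2B KO (median -0.09). Examples of the falls were *SRSF1*, an SR protein, at -0.93 in A549 and *SRSF3* at -0.64 in LN319. Values in this set ran from -1.09 to 2.06 in A549, -0.995 to 0.876 in NCI-H23 and -0.64 to 0.90 in LN319. Of core spliceosome genes, 13 of 37 fell and 1 rose in A549 (median -0.29), 23 of 37 fell and 1 rose in NCI-H23 (median -0.41), and 22 of 37 fell and none rose in LN319 (median -0.38). *PRPF8*, the largest U5 protein, measured -0.81 in A549, *SF3B6* -0.76 in NCI-H23, and *SNRPF* -0.88 in LN319. The riser in both lung lines was *U2AF1* (0.89 and 1.24), whose near-identical copy makes its value uncertain. The member medians of -0.34, -0.31 and -0.35 lay near those of the core spliceosome, and no test was made between the sets.

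**Figure D5:**
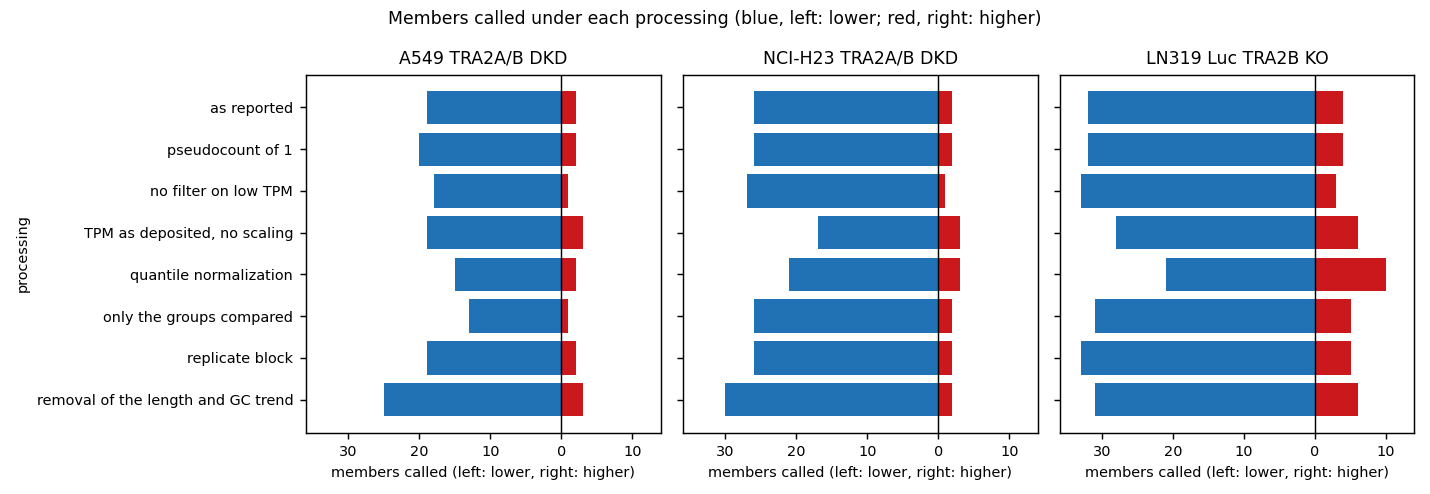
Number of members called higher (red, right) and lower (blue, left) in the 3 comparisons with most calls, as reported and under each alternative processing. Lower calls outnumber higher calls under each, with the narrowest margin in LN319 Luc TRA2B KO under quantile normalization (21 lower, 10 higher).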

How the data were processed

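RNA-seq of poly(A)-selected RNA from 54 libraries of 4 cell lines, 3 per group in 18 groups, was used in this work. The values are TPM (transcript abundance relative to the library total) per gene, deposited by the authors as 1 table per line. The study names kallisto 0.48.0 with Gencode v34 on GRCh38 for quantification and STAR 2.7.3 for splicing analysis. TPM keep no read depth, so the depth behind each value is unknown and no counting interval is given. TPM summed to between 928908 and 964610 per library. The values are estimates that can split reads between near-identical genes.

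Within each line, genes of at least 1 TPM in at least 4 libraries were kept (16293 to 19303 of 55906), scaled by unweighted trimmed mean of M values (30% and 5% trims) and tested on log2(TPM + 0.1) with limma 3.58.1 in R 4.3.3, with all libraries of the line in 1 fit, a trend in the prior variance and Benjamini-Hochberg adjustment over all genes kept. The study fitted limma-voom on estimated counts, which TPM do not allow. There were 14 two-group comparisons and 4 interaction tests. An exact permutation test of 3 against 3 cannot go below p = 0.10, so none is given. The fits were also run on simulated data with independent noise, and no outcome is given here. Those data held no deviant library and no shift in composition, so they do not bear on the dependence on single libraries or scaling. Alternatives were another pseudocount (1), no filter, no scaling, quantile normalization, only the groups compared, a replicate block, each library left out and, chosen after seeing the data, removal of length and GC trends.

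The members and the other gene lists were chosen with earlier results of these data known. Library values were given for members called in both TRA2A/B double knockdowns (the 6 largest per direction), members beyond 1 on the log2 scale, up to 4 called members of each other comparison and up to 4 of each interaction; a few further members were given values after these were seen. Gene positions and coding sequences come from Gencode v44 on GRCh38, and promoters from RefSeq, GRCh38.p14. Python 3.11.15, pandas 2.3.3, numpy 2.4.6 and matplotlib 3.10.9 were used.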

Additional observations from a re-analysis of the deposited data

Results flagged for a closer look

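In A549, 19 members responded to the double knockdown differently from the sum of the single knockdowns, on the log2 scale and by limma's interaction test. By size these were *HNRNPA1* (-1.29), *HNRNPAB* (-0.95), *HNRNPA3* (-0.92), *HNRNPD* (-0.90), *HNRNPUL1* (-0.90), *MBNL2* (0.88), *PCBP1* (-0.85), *HNRNPA0* (-0.82), *HNRNPH3* (-0.75), *HNRNPC* (-0.68), *HNRNPA2B1* (-0.68), *HNRNPF* (-0.65), *HNRNPU* (-0.62), *ELAVL1* (-0.58), *HNRNPH2* (-0.57), *HNRNPR* (-0.56), *KHDRBS1* (-0.51), *RBMX* (-0.44) and *SYNCRIP* (-0.39). The negative values mean a double knockdown below the sum, which need not be a fall against the control. *HNRNPA0*, *HNRNPA2B1*, *HNRNPC*, *HNRNPH3*, *HNRNPR* and *PCBP1* were not called in the A549 double knockdown itself. The A/B hnRNPs had a median of 0.17 in TRA2A KD, 0.14 in TRA2B KD and -0.57 in the double knockdown, against -0.91 here. Under removal of 1 library at a time, 10 of these calls held and those of *ELAVL1*, *HNRNPA0*, *HNRNPA2B1*, *HNRNPH2*, *HNRNPH3*, *HNRNPU*, *PCBP1*, *RBMX* and *SYNCRIP* did not (adjusted p up to 0.12), with TRA2B KD replicate 2 the library that ended each of them.

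In NCI-H23, 17 members did so, all with a double knockdown below the sum. They were *ESRP2* (-1.90), *HNRNPD* (-1.35), *HNRNPA1* (-0.80), *ELAVL1* (-0.76), *HNRNPH3* (-0.62), *HNRNPA3* (-0.57), *HNRNPM* (-0.52), *HNRNPF* (-0.49), *HNRNPA2B1* (-0.49), *PCBP1* (-0.48), *HNRNPAB* (-0.44), *PTBP1* (-0.44), *HNRNPA0* (-0.44), *RBM3* (-0.42), *HNRNPC* (-0.35), *HNRNPH2* (-0.35) and *KHDRBS1* (-0.28). All of these calls held with each library left out in turn. *HNRNPA3* was not called in the NCI-H23 double knockdown itself.

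*ESRP2* has the largest value of the NCI-H23 list, at levels of 0.557 to 2.37 TPM. It passed the filter on low values only through libraries outside the double knockdown.

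For 4 members the 3 libraries of Luc TRA2B KO lay above all control libraries in TPM in LN229 and below all of them in LN319, which is 4 of 43 tested in both lines (9.3%) against 2.04% of all 16426 genes. They were *HNRNPA2B1* (log2 fold changes of 0.075 in LN229 and -0.36 in LN319), *HNRNPA3* (0.30 and -0.47), *HNRNPC* (0.064 and -0.57) and *HNRNPK* (0.031 and -0.41). The difference between the lines was not tested, the LN229 values were not called other than that of *HNRNPA3*, and under quantile normalization the LN319 values of *HNRNPA2B1* and *HNRNPK* went to 0.22 and -0.0088, the latter not called (adjusted p = 0.89). *TRA2B* mRNA remained at 147 TPM in LN229 and 30.8 TPM in LN319 after knockout.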

How the results depend on the processing

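The fall of members in the double knockdowns and in LN319 Luc TRA2B KO kept its direction under every alternative, and 12 of 21, 16 of 28 and 24 of 36 calls held in all of them in A549, NCI-H23 and LN319. Of the calls on fold change of 1 member, 1661 values kept their call, 296 lost it and 4 reversed. The reversed ones were all in LN319 Luc TRA2B KO under quantile normalization, *HNRNPA2B1* (0.22), *HNRNPL* (0.11), *CIRBP* (0.036) and *PTBP1* (0.028). In the other comparisons of single perturbations or overexpression, 3 of 7 calls in LN319 Luc TRA2A KO (*KHDRBS3*, *SRRM1* and *ESRP1*) stayed with each library left out, and none of the 9 in the rest did. The cause was not tested. Depth is unknown, and 3 libraries per group limit what can be called.

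With TPM as deposited and no scaling, members called went from 0 to 1 in A549 TRA2B KD, from 19 to 7 in A549 non-additivity, from 2 lower to 1 higher in NCI-H23 TRA2B KD (neither *PCBP2* nor *RBM3*), from 17 to 11 in NCI-H23 non-additivity, from 7 to 11 in LN319 Luc TRA2A KO, from 2 to 1 in LN319 TRA2B-OE (*RBM39*), and from 2 to 1 in LN319 TRA2B-OE TRA2A KO (neither *KHDRBS3* nor *TIA1*). This setting moved the median over all genes to 0.11 in the A549 and 0.17 in the NCI-H23 double knockdown, to 0.12 in NCI-H23 TRA2B KD, to 0.12 in LN319 Luc TRA2B KO and to 0.26 in A549 non-additivity, and the genes called higher and lower went from 3252 and 3783 to 4372 and 2569 in the NCI-H23 double knockdown, from 3569 and 4671 to 4639 and 3581 in LN319 Luc TRA2B KO, and from 985 and 1427 to 1643 and 617 in A549 non-additivity. Quantile normalization gave 1 in A549 TRA2B KD, 7 in A549 non-additivity, 1 in NCI-H23 TRA2B KD, 2 in LN229 Luc TRA2B KO (from 1), 1 in LN229 TRA2B-OE TRA2A KO (from 0) and 1 in LN319 TRA2B-OE TRA2A KO (again neither of those 2).

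Without the filter, 0 members were called in NCI-H23 TRA2B KD, LN229 Luc TRA2B KO, LN319 TRA2B-OE and LN319 TRA2B-OE TRA2A KO, and 1 in LN229 Luc TRA2A KO (from 2). With the fit limited to the groups compared, 0 were called in NCI-H23 TRA2B KD, LN229 Luc TRA2A KO, LN229 Luc TRA2B KO, LN319 TRA2B-OE and LN319 TRA2B-OE TRA2A KO, and all genes called in the A549 double knockdown went from 5004 to 2901. This setting leaves fewer samples to estimate the spread, and it has no separate value for non-additivity, which uses all groups. Removal of the length and GC trend gave 1 in NCI-H23 TRA2A KD (from 0), 1 in LN229 Luc TRA2A KO, 3 in LN229 Luc TRA2B KO, 1 in LN229 TRA2B-OE TRA2A KO, 12 in LN319 Luc TRA2A KO and 0 in LN319 TRA2B-OE.

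Replicate numbers showed no consistent pairing of the samples. Same-numbered deviations correlated at -0.154 to 0.212 over single pairs, and in 0 of 14 comparisons was every pair above 0.1. All same-numbered pairs were positive in A549 TRA2A KD (mean 0.0917) and LN229 TRA2B-OE (0.0905), and negative in the A549 double knockdown (-0.0844). Whether the numbers mark matched libraries was not settled. With the replicate block, members called went to 0 in NCI-H23 TRA2B KD, 5 in LN229 Luc TRA2A KO, 5 in LN229 Luc TRA2B KO, 1 in LN229 TRA2B-OE TRA2A KO, 11 in LN319 Luc TRA2A KO and 16 in LN319 TRA2B-OE, and stayed within 1.5 times of the count without it elsewhere.

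Leaving out each library in turn gave 0 to 1 members in A549 TRA2B KD, 16 to 30 in the A549 double knockdown, 10 to 25 in A549 non-additivity (the lowest without TRA2B KD replicate 2 and the highest without Control KD replicate 3), 0 to 1 in NCI-H23 TRA2B KD, 26 to 28 in the NCI-H23 double knockdown, 0 to 2 in LN229 Luc TRA2A KO, 0 to 13 in LN229 Luc TRA2B KO, 3 to 7 in LN319 Luc TRA2A KO, 30 to 35 in LN319 Luc TRA2B KO, 0 to 6 in LN319 TRA2B-OE (the highest without TRA2B-OE Control KO replicate 3) and 0 to 1 in LN319 TRA2B-OE TRA2A KO.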
